A study of Homo sapiens with 8 samples.

Results

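The genes described here make and load microRNAs: DGCR8, DROSHA, XPO5, DICER1, TARBP2, PRKRA, AGO1 and AGO2. They were chosen by symbol, and the files list AGO1 and AGO2 under their older symbols EIF2C1 and EIF2C2. All 8 genes were found among 23368 listed genes, and all 8 passed the filter on low counts that left 14448 genes for testing. They were chosen with their levels in these libraries already known, above all the loss of DGCR8 after treatment. Their levels and changes are therefore a description, and no p-value is given for them.

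RNA was sequenced in bulk from U87MG, an established human glioblastoma line. The groups were cells after 4 h, 24 h or 48 h of enzalutamide, an androgen receptor antagonist used against prostate cancer, and untreated cells as control. Each group held 2 libraries, and the comparisons ask how these transcripts differed from untreated cells at each time. The labels give no dose, no vehicle and no harvest time for the control, so drug and any other difference between dishes cannot be told apart. The extraction protocol places the harvest after differentiation, which no other label mentions, so the state of the cells is unclear. The labels also leave unsaid whether replicates are separate cultures. P-values and standard errors reflect how far the 2 libraries of a group differ, and that spread may be technical only. The spread is pooled over all 4 groups, so groups outside a comparison also enter it. In bulk RNA, fewer cells that express a gene and less of its RNA per cell cannot be told apart.

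A microRNA starts as a hairpin in a longer nuclear transcript. The Microprocessor, made of the RNase DROSHA and its RNA-binding partner DGCR8, cuts the hairpin free. XPO5 carries it out of the nucleus on the Ran cycle, DICER1 trims it to a duplex with its partners TARBP2 and PRKRA, and 1 strand is loaded into an Argonaute protein such as AGO1 or AGO2. As background, the Microprocessor also cuts hairpins in the transcript of DGCR8 itself.

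Those hairpins lie in exon 2 of DGCR8 in the GENCODE v29 annotation, MIR3618 in its untranslated part and MIR1306 in its coding part. Their mature sequences are shown because they are part of the transcript whose level changed most among these genes. They are from RefSeq on GRCh38.p14, written 5′ to 3′ with the seed (bases 2 to 8) in capitals, and all 3 lie on the plus strand of chromosome 22.
hsa-miR-3618 (chr22:20085797-20085818): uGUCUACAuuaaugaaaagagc
hsa-miR-1306-5p (chr22:20086072-20086093): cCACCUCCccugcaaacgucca
hsa-miR-1306-3p (chr22:20086112-20086129): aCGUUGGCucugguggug
No seed was shared among these or with the microRNAs of host transcripts shown further on. The rows for both hairpins were at 0 counts in all 8 libraries, and mature microRNAs were not measured.

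The libraries held 24620833 to 37162565 counts. Levels below are CPM, counts relative to a fixed library size, scaled with edgeR's TMM factors. Replicate libraries correlated at r of 0.992 to 0.995 over genes, which are not independent. Their spread was less even between groups. As chi-square per degree of freedom it was 6.92 in control, 14.6 at 4 h, 4.50 at 24 h and 20.8 at 48 h. The 48 h libraries stood apart from the other 6 on the first principal component (65.8% of the variance), at 88 and 79, with the other 6 between -37.6 and -19.5. Of 8 markers chosen for glioma lines 7 were tested, and their summed level was 24370 and 25319 CPM at 48 h and 13278 to 16639 CPM elsewhere. At 48 h 5 of the 7 were called higher and 2 lower, where 33.3% of all genes tested were higher and 33.5% lower. VIM, the most abundant, was at 13642 and 12520 CPM at 48 h and 7919 and 8068 CPM in control. The lower ones were NES, at 10.9 and 13.2 CPM at 48 h and 25.2 and 27.1 CPM in control, and the astrocyte gene GFAP, at 0.136 and 0.0688 CPM at 48 h and 0.227 and 0.633 CPM in control. Summed neuron markers (4 of 5 tested) lay at 40.3 to 52.0 CPM, epithelial markers (2 of 4) at 4.81 to 11.1 CPM and endothelial markers (2 of 3) at 0.309 to 1.2 CPM. Summed immune markers (1 of 5 tested, 1 at 0 in every library) were at 930 and 1050 CPM at 48 h and 567 to 712 CPM elsewhere, nearly all from CD68. The part of these shifts in the results below was not tested.

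DGCR8, the RNA-binding subunit of the Microprocessor, was lower at 24 h and close to 0 by 48 h. It stood at 32.5 and 32.4 CPM in control libraries, 34.2 and 35.9 CPM at 4 h, 12.2 and 11.4 CPM at 24 h, and 0.749 and 0.791 CPM at 48 h. The 4 groups did not overlap, and the libraries of each group lay close together. Behind the 48 h values were 22 and 23 counts, with exact 95% Poisson intervals of 13.8 to 33.3 and 14.6 to 34.5 counts that cover counting error only, against 1147 and 1126 counts in control. Relative to control, the fitted log2 change was 0.11 (SE 0.09) at 4 h, -1.46 (SE 0.09) at 24 h and -5.39 (SE 0.14) at 48 h, which is 2.74-fold lower at 24 h and 42.0-fold lower at 48 h. Between consecutive times the log2 change was -1.57 (SE 0.09) for 24 h against 4 h and -3.93 (SE 0.15) for 48 h against 24 h. Among 7652 genes with at least 20 CPM in control, DGCR8 had the fall of rank 2 at 48 h. That filter uses the control level, where DGCR8 was high, and DGCR8 was chosen for its fall. The rank therefore only describes it.

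DROSHA, the RNase of the same complex, moved far less. It had 62.2 and 63.6 CPM in control libraries, 60.04 and 53.6 CPM at 4 h, 68.6 and 71.1 CPM at 24 h, and 48.9 and 52.0 CPM at 48 h. Its log2 change against control was -0.15 (SE 0.08) at 4 h, 0.15 (SE 0.07) at 24 h and -0.32 (SE 0.08) at 48 h. The 48 h libraries were the lowest of all 8. In proportion to DROSHA, DGCR8 had 52.3 and 50.9 counts per 100 DROSHA counts in control, 57.0 and 67.1 counts at 4 h, 17.8 and 16.1 counts at 24 h, and 1.53 and 1.52 counts at 48 h. This ratio within a library does not depend on scaling between libraries, and its groups did not overlap either.

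**Figure D1:**
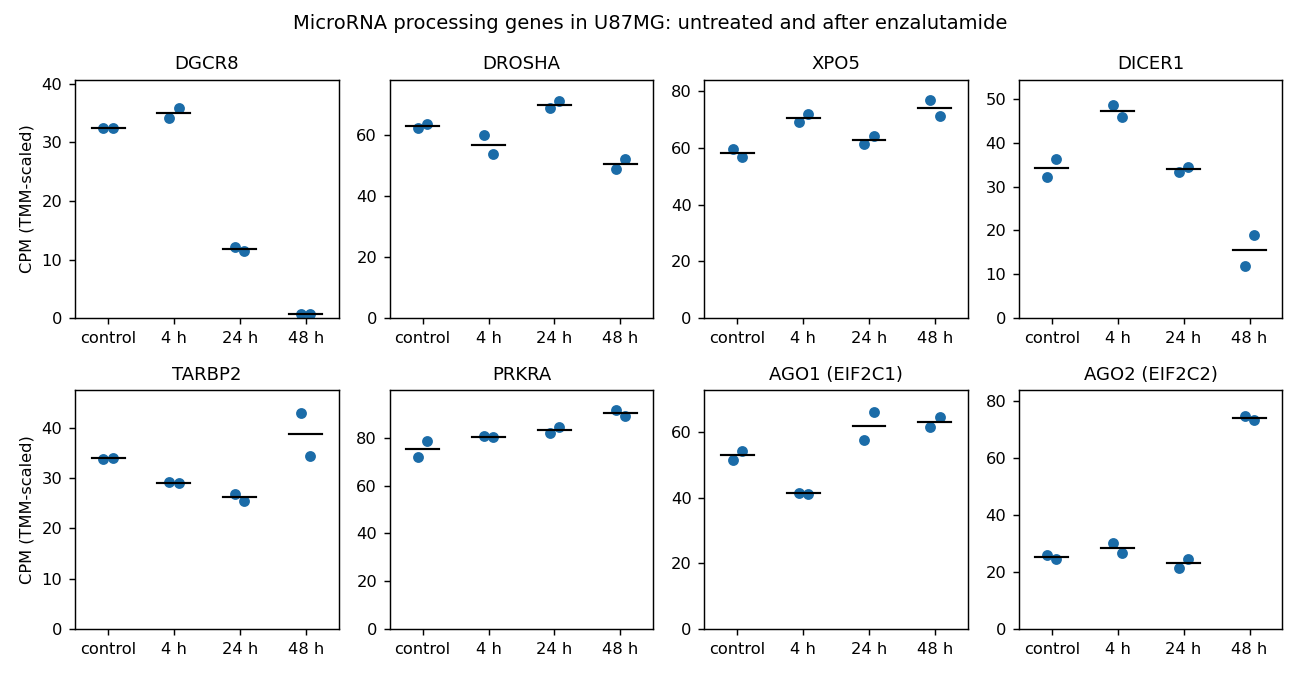
Levels of the 8 genes in each library, as TMM-scaled CPM on axes that start at 0, with untreated cells and 3 times after enzalutamide from left to right. Points are libraries and bars are means of 2 libraries. DGCR8 is at 0.749 and 0.791 CPM at 48 h, while AGO2 is at 74.8 and 73.4 CPM there, above its other 6 libraries.

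XPO5, the exportin that takes hairpin precursors to the cytoplasm, was above control in every treated library. It had 59.4 and 56.6 CPM in control libraries, 69.1 and 72.0 CPM at 4 h, 61.4 and 64.1 CPM at 24 h, and 76.7 and 71.1 CPM at 48 h. The log2 change was 0.28 (SE 0.07) at 4 h, 0.11 (SE 0.07) at 24 h and 0.35 (SE 0.07) at 48 h. With scaling by library totals alone the 48 h change was 0.07 and was not called. The 4 h change was not called without control replicate 2 (0.25), 4 h replicate 1 (0.31) or 4 h replicate 2 (0.25).

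DICER1, the RNase that cuts the exported precursor, was higher at 4 h and lower at 48 h. It stood at 32.2 and 36.3 CPM in control libraries, 48.5 and 45.7 CPM at 4 h, 33.3 and 34.5 CPM at 24 h, and 12.0 and 19.05 CPM at 48 h. The 24 h libraries lay within the control range, while both other times did not overlap control. The 48 h libraries differed most from each other, with a mean of 15.5 ± 5.0 CPM (SD, n = 2) against 34.3 ± 2.85 CPM (SD, n = 2) in control. The log2 change was 0.46 (SE 0.15) at 4 h, -0.02 (SE 0.15) at 24 h and -1.14 (SE 0.16) at 48 h, which is 2.21-fold lower at 48 h. The 4 h change was not called with library totals (0.40) or without any 1 of the control, 4 h or 24 h libraries (0.37 to 0.54). The antisense transcript DICER1-AS1 had 5 and 5 counts at 48 h and 31 and 25 counts in control. That is 0.868 to 2.72 per 100 DICER1 counts over the 8 libraries.

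TARBP2 and PRKRA are RNA-binding partners of DICER1. TARBP2 was lower at 24 h, and PRKRA was higher at 48 h. TARBP2 had 33.9 and 34.0 CPM in control libraries, 29.2 and 29.1 CPM at 4 h, 26.9 and 25.5 CPM at 24 h, and 43.1 and 34.4 CPM at 48 h. Its log2 change was -0.22 (SE 0.10), -0.37 (SE 0.10) and 0.19 (SE 0.10) at the 3 times, and its 48 h libraries were spread widely. The 24 h fall was not called without any 1 of the control or 24 h libraries (-0.41 to -0.34). At 4 h TARBP2 was called lower with library totals (-0.29), in a fit of the 4 h and control libraries alone (-0.22) and without either 48 h library (-0.22). At 48 h it was called higher without 48 h replicate 2 (0.35), while the change was 0.022 without 48 h replicate 1 and -0.091 with library totals, neither called.

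PRKRA stood at 72.2 and 78.9 CPM in control libraries, 80.8 and 80.3 CPM at 4 h, 82.2 and 84.5 CPM at 24 h, and 91.6 and 89.2 CPM at 48 h. Every treated library was above both control libraries. The log2 change was 0.09 (SE 0.07), 0.14 (SE 0.07) and 0.26 (SE 0.07) at the 3 times. The 48 h change turned to -0.020 with library totals and was not called, and it was not called without control replicate 1 (0.20).

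AGO2, the Argonaute that can cut its target RNA, had the largest rise of the 8 genes at 48 h. AGO2 (EIF2C2) stood at 26.0 and 24.5 CPM in control libraries, 30.2 and 26.5 CPM at 4 h, 21.4 and 24.7 CPM at 24 h, and 74.8 and 73.4 CPM at 48 h. Control and the first 2 times lay within 21.4 to 30.2 CPM, and both 48 h libraries were far above. The log2 change was 0.17 (SE 0.10) at 4 h, -0.13 (SE 0.10) at 24 h and 1.56 (SE 0.09) at 48 h, which is 2.94-fold higher, and 1.69 (SE 0.09) for 48 h against 24 h. Among the 7652 genes with at least 20 CPM in control AGO2 had the rise of rank 95, which likewise only describes a gene chosen with its levels known.

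AGO1, an Argonaute that silences its targets without cutting, was lower at 4 h and higher at 48 h. AGO1 (EIF2C1) had 51.5 and 54.3 CPM in control libraries, 41.5 and 41.2 CPM at 4 h, 57.8 and 66.1 CPM at 24 h, and 61.7 and 64.7 CPM at 48 h. The log2 change was -0.35 (SE 0.08) at 4 h, 0.23 (SE 0.08) at 24 h and 0.26 (SE 0.08) at 48 h. Its 4 h call was lost without control replicate 2 (-0.32), 4 h replicate 1 (-0.36) or 4 h replicate 2 (-0.35). At 24 h it was called higher in a fit of control and 24 h libraries alone (0.21) and without either 48 h library (0.23). The 48 h change turned to -0.022 with library totals, and was not called with a filter of 5 CPM (0.17) or without control replicate 1 (0.22).

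AGO2 outnumbered AGO1 in counts only at 48 h, on values not corrected for length. There were 50.4 and 45.1 AGO2 counts per 100 AGO1 counts in control, 72.8 and 64.3 counts at 4 h, 37.1 and 37.4 counts at 24 h, and 121 and 114 counts at 48 h. The paralogs AGO3 (EIF2C3) and AGO4 (EIF2C4), which were on the list of silencing-complex partners, also moved apart. AGO3, named after its values were seen, had 12.1 and 12.4 CPM in control, 12.2 and 13.8 CPM at 4 h, 13.4 and 15.7 CPM at 24 h, and 26.4 and 32.9 CPM at 48 h. AGO4 had 17.7 and 20.9 CPM in control, 15.6 and 13.7 CPM at 4 h, 18.5 and 19.9 CPM at 24 h, and 3.71 and 5.16 CPM at 48 h. In proportion, AGO4 had 14.1 and 15.7 counts per 100 AGO3 counts at 48 h, against 146 and 168 in control. At 48 h the log2 change was 1.27 for AGO3 and -2.12 for AGO4 (SE 0.16, edgeR adjusted p = 5.4e-07). Argonaute genes are similar in sequence, and how reads were split between them is not given in the sources used here.

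**Figure D2:**
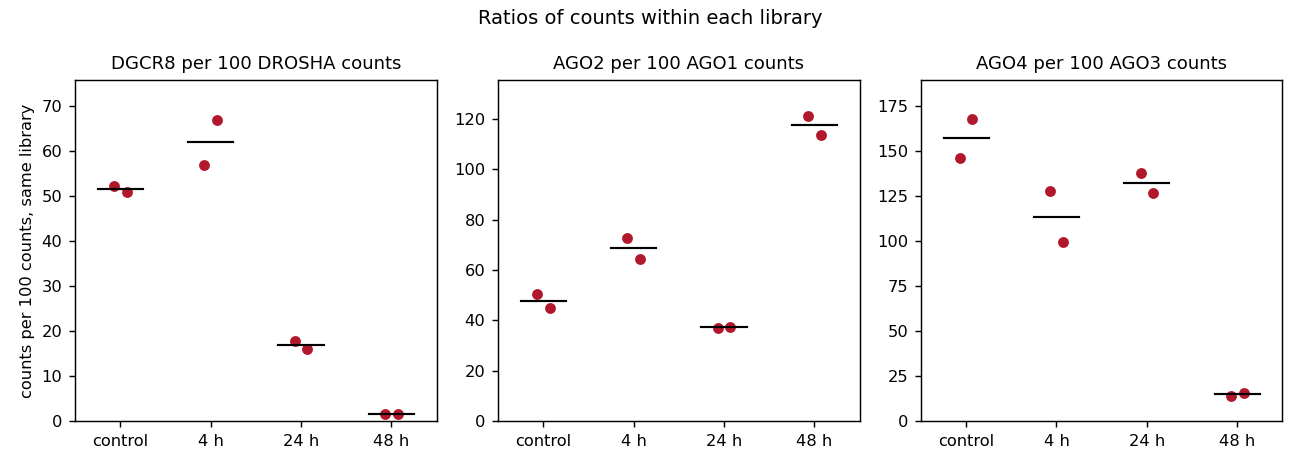
Counts of 1 gene per 100 counts of a partner gene in the same library, for DGCR8 over DROSHA, AGO2 over AGO1 and AGO4 over AGO3. Groups run from control to 48 h, points are libraries and bars are means of 2. At 48 h the ratios are 1.53 and 1.52, 121 and 114, and 14.1 and 15.7.

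At 4 h, 2 of the 8 genes were called higher and 1 lower, where 28.6% of all 14448 genes were called either way. At 24 h none was called higher by edgeR and 2 were lower, where 22.3% of all genes were called; 1 was higher at an unadjusted p under 0.05, and DESeq2 and limma-voom called 0 higher. At 48 h, 4 were called higher and 3 lower, where 66.9% of all genes were called. The treated and control libraries did not overlap for 8 of 8 genes at 4 h, 6 of 8 at 24 h and 8 of 8 at 48 h, where 68.6%, 66.2% and 82% of all genes did not. Nothing is read from these counts, since the genes were chosen with these contrasts known. Between times, 2 were higher and 3 lower at 24 h against 4 h, where 21.2% of all genes were higher and 20.3% lower (41.5% together). At 48 h against 24 h, 3 were higher and 3 lower, where 31.5% of all genes were higher and 35.3% lower (66.8% together). The groups did not overlap for 8 of 8 genes at 24 h against 4 h (75.8% of all genes) and 7 of 8 at 48 h against 24 h (82.3%). The median log2 change of the 8 genes was 0.10 at 4 h, 0.05 at 24 h and 0.22 at 48 h, beside -0.004, 0.01 and -0.02 over all genes tested. Library totals in place of TMM factors moved the median of all genes at 48 h by -0.28, and the split of calls to 2742 higher and 6729 lower from 4814 and 4847. The calls of DGCR8, DROSHA, DICER1 and AGO2 at 48 h held under each of 16 alternative settings other than a minimum fold. These settings reuse the same libraries and genes chosen with their levels known, so they are no independent check.

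**Figure D3:**
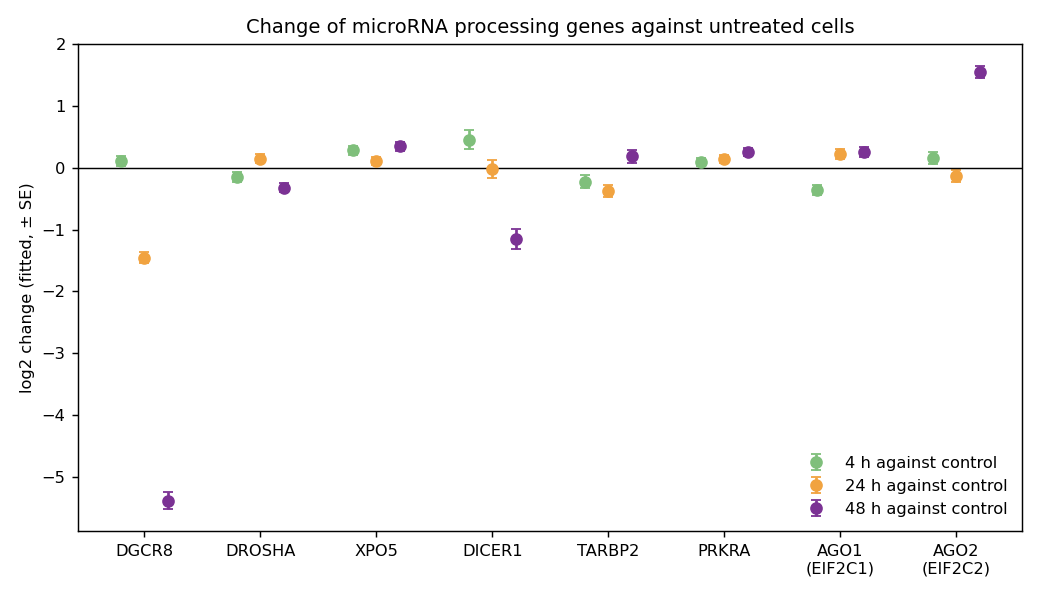
Fitted log2 change against untreated cells at 4, 24 and 48 h for the 8 genes, with 1 SE as the error bar, from 2 libraries a group. DGCR8 is at -1.46 at 24 h and -5.39 at 48 h, and AGO2 at 1.56 at 48 h. The remaining points lie between -1.14 and 0.46.

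Per kilobase of annotated exon (GENCODE v29, on GRCh38 rather than the build of the files), the order of levels in control was PRKRA, TARBP2, DROSHA, XPO5, DGCR8, AGO1, DICER1 and AGO2. The levels were 34.7 CPM per kilobase for PRKRA, 17.4 for TARBP2, 11.6 for DROSHA and 10.8 for XPO5. They were 7.18 for DGCR8, 3.83 for AGO1 (EIF2C1), 3.20 for DICER1 and 1.73 for AGO2 (EIF2C2). No neighbours in this order overlapped between their 2 control libraries, and the order was the same with the median transcript length of each gene. At 48 h DGCR8 was lowest, at 0.170 CPM per kilobase.

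The genes whose pattern was most like that of DGCR8 were found by Pearson's r of log2 CPM over the 8 libraries, among 10919 genes whose mean log2 CPM reached 2. They were TMEM168 (r = 0.998), APOL3, SP6, ZNF783 and DCUN1D2 (0.997 each). The 8 points fall in 4 groups, and these values are a description. Each kept a larger share of its control level at 48 h than DGCR8 did. TMEM168 had 5.79 and 6.12 CPM at 48 h and 35.6 and 35.6 in control, and SP6 had 7.76 and 7.70 CPM at 48 h and 17.9 and 17.7 in control. Among the 8 genes, DICER1 was the most like DGCR8 (0.926) and AGO2 (EIF2C2) the least (-0.905).

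Other genes that act beside these 8 were taken from 6 lists of 75 genes, of which 73 were tested. At 4 h 11 were higher and 11 lower, at 24 h 15 higher and 5 lower, and at 48 h 28 higher and 29 lower. With library totals the splits were 8 and 15, 10 and 7, and 19 and 40, so they depend on scaling. The share of all genes called higher was 15%, 12.9% and 33.3% at the 3 times, and lower 13.6%, 9.39% and 33.5%. The genes named from each list are the 3 called ones with the smallest p at each time, unless said otherwise. These lists, and those of host and neighbour genes below, were also chosen with earlier results of these data known. P-values given for their genes therefore only describe them and are no independent test.

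**Figure D4:**
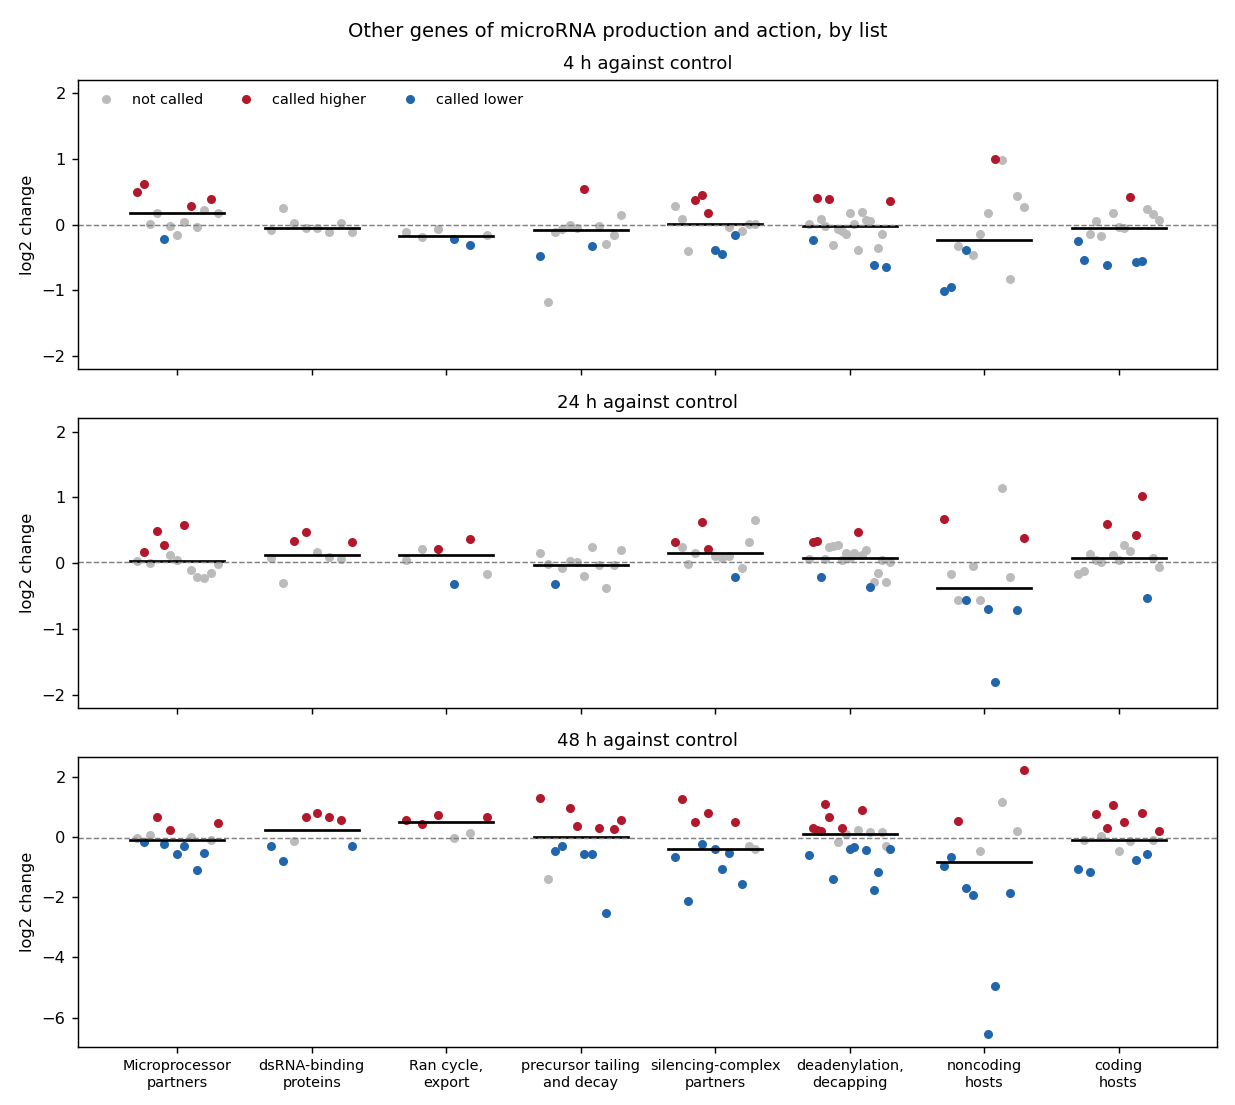
Log2 change against untreated cells of each tested gene on the 6 pathway lists and 2 lists of microRNA host genes, at 4, 24 and 48 h from top to bottom. Red points were called higher, blue lower and grey not called. Black bars are list medians, and the dashed line is the median of all genes tested. At 48 h the noncoding hosts reach -6.53 and the precursor decay list -2.53.

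Of 13 partners of the Microprocessor, 4 were higher and 1 lower at 4 h, 4 higher and none lower at 24 h, and 3 higher and 6 lower at 48 h (2 higher and 10 lower with library totals). At 24 h, 2 were lower at an unadjusted p under 0.05, and DESeq2 and limma-voom called 0 lower. DDX5 and DDX17 are RNA helicases that assist DROSHA. DDX5 had 566 and 547 CPM at 4 h and 364 and 362 CPM in control (log2 change 0.62, SE 0.06, edgeR adjusted p = 2.5e-05). DDX17 rose by 0.50 (SE 0.07) and SRRT, which links capped transcripts to the Microprocessor, by 0.39 (SE 0.07). At 24 h NCBP1, a subunit of the nuclear cap-binding complex, was higher by 0.58 (SE 0.08), and HNRNPA1 by 0.49 (SE 0.09). At 48 h HNRNPA1 was higher by 0.67 (SE 0.09) and the splicing factor SRSF3 by 0.48 (SE 0.07). HNRNPA1 has many processed copies in the genome, so its count is uncertain. The nuclear matrix protein gene SAFB was at 37.3 and 45.3 CPM at 48 h and 86.9 and 90.7 CPM in control (log2 change -1.10, SE 0.10, edgeR adjusted p = 1.8e-06).

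Of 8 other genes for proteins that bind double-stranded RNA, none was called by edgeR at 4 h, 3 were higher at 24 h, and 4 were higher and 3 lower at 48 h (4 and 4 with library totals). At 4 h, 1 was higher at an unadjusted p under 0.05, and DESeq2 and limma-voom called 0. At 24 h EIF2AK2, the kinase PKR that double-stranded RNA activates, was higher by 0.47 (SE 0.07), and the helicase gene DHX9 by 0.33 (SE 0.06). At 48 h ILF2 was higher by 0.82 (SE 0.06). STAU1, which acts in RNA transport and decay, was higher by 0.56 (SE 0.06). Of 6 genes of the Ran cycle and related exportins, 2 were lower at 4 h, 2 higher and 1 lower at 24 h, and 4 higher and none lower at 48 h (3 and 1 with library totals). At 48 h, 0 were lower at an unadjusted p under 0.05 or by DESeq2 or limma-voom. RANGAP1, the activator of Ran's GTPase, had 393 and 348 CPM at 48 h and 225 and 222 CPM in control (log2 change 0.73, SE 0.07). The tRNA exportin gene XPOT was higher by 0.68 (SE 0.06) and RAN by 0.56 (SE 0.07). The exportin gene XPO1 was higher at 24 h by 0.37 (SE 0.07).

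Of 12 tested genes that tail or degrade precursor and mature microRNAs, 1 was higher and 2 lower at 4 h, none higher and 1 lower at 24 h, and 6 higher and 5 lower at 48 h (3 and 6 with library totals). At 24 h, 1 was higher at an unadjusted p under 0.05, and DESeq2 and limma-voom called 0 higher. The largest fall was in ZC3H12A, an RNase known to cut microRNA precursors, which had 12.4 and 19.5 CPM at 48 h and 94.1 and 89.6 CPM in control (log2 change -2.53, SE 0.15, edgeR adjusted p = 9.6e-08). DIS3L2, the exonuclease that degrades uridylated let-7 precursors, had 62.2 and 59.6 CPM at 48 h and 24.4 and 24.7 CPM in control (log2 change 1.31, SE 0.08). At 4 h DIS3L2 had a log2 change of -0.47 (SE 0.08). SND1, a nuclease of the silencing complex, was higher at 48 h by 0.96 (SE 0.06). TSNAX, a subunit of the nuclease C3PO, was higher at 4 h by 0.54 (SE 0.09). LIN28A and TRIM71, which act on let-7 in embryonic cells, did not pass the filter on low counts.

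Of 13 partners of the silencing complex, 3 were higher and 3 lower at 4 h, 3 higher and 1 lower at 24 h, and 4 higher and 7 lower at 48 h (4 and 9 with library totals). TNRC6A encodes a GW182 scaffold that ties Argonaute to deadenylases. It had 23.7 and 33.0 CPM at 48 h and 79.0 and 87.2 CPM in control (log2 change -1.55, SE 0.12, edgeR adjusted p = 8.3e-07). The chaperone genes HSP90AA1 and HSP90AB1 have products that help load Argonaute. HSP90AA1 had a log2 change of 0.45 (SE 0.06) at 4 h, 0.63 (SE 0.06) at 24 h and -0.22 (SE 0.06) at 48 h, all called. HSP90AB1 had 0.18 (SE 0.06), 0.21 (SE 0.06) and 0.79 (SE 0.06) at the same times, also called, but its 24 h call was lost with library totals (0.15), with DESeq2 (0.18) and without any 1 of the control or 24 h libraries (0.20 to 0.23). Its 4 h call was lost with library totals (0.12), with DESeq2 (0.17) and without any 1 of the control, 4 h or 24 h libraries (0.14 to 0.22). The 48 h call of HSP90AA1 was lost without control replicate 2 (-0.15). Their co-chaperone gene FKBP4 was higher at 4 h by 0.38 (SE 0.07), and IPO8, an import receptor for Argonaute, had a log2 change of -0.38 (SE 0.07).

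Of 21 genes of deadenylation and decapping, which act downstream of Argonaute, 3 were higher and 3 lower at 4 h, 3 higher and 2 lower at 24 h, and 7 higher and 8 lower at 48 h (3 and 10 with library totals). PAN2, a deadenylase, had a log2 change of -0.61 (SE 0.12) at 4 h and -1.75 (SE 0.13) at 48 h, when it stood at 8.51 and 11.5 CPM, against 33.9 and 33.2 CPM in control. CNOT3, a subunit of the other main deadenylase complex, had 148 and 139 CPM at 48 h and 67.8 and 65.0 CPM in control (log2 change 1.11, SE 0.07). The decapping gene EDC3 was higher at 48 h by 0.91 (SE 0.07). At 4 h TOB1, which recruits deadenylases, had a log2 change of -0.64 (SE 0.13), and CNOT10 was higher by 0.40 (SE 0.08). All 27 genes named by the rule at 48 h, those of host and neighbour lists included, kept their call and direction in 16 alternatives. At 4 h 16 of 23 and at 24 h 11 of 23 did, and of the rest only MIR210HG, HSP90AB1 and PIWIL4 are given with values for those times, a choice made after the values were seen. The named genes were picked by smallest p in the same libraries, so a call that holds is no independent check. PIWIL4 was the 1 tested gene of 4 PIWI genes, at 0.131 to 0.538 CPM.

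Transcripts that carry microRNA hairpins were followed through 20 noncoding and 16 coding host genes. Of the noncoding hosts 17 were in the files and 12 tested, of which 1 was higher and 3 lower at 4 h, 2 higher and 4 lower at 24 h, and 2 higher and 7 lower at 48 h (1 and 7 with library totals). Of all genes tested, 15%, 12.9% and 33.3% were higher at the 3 times, and 13.6%, 9.39% and 33.5% lower. Mature microRNAs of the 3 hosts named at 48 h are shown, since the host RNA is what was measured; sequences are from RefSeq on GRCh38.p14, minus strand, with the seed in capitals.
hsa-miR-22-3p (MIR22HG, chr17:1713914-1713935): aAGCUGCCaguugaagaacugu
hsa-miR-210-3p (MIR210HG, chr11:568112-568133): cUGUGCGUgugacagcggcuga
hsa-miR-100-5p (MIR100HG, chr11:122152275-122152296): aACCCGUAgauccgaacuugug
hsa-let-7a-5p (MIR100HG, chr11:122146568-122146589): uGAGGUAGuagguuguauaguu
hsa-miR-125b-5p (MIR100HG, chr11:122099809-122099830): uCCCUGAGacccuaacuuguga

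MIR22HG was above control at 4 h and far below it later. It stood at 31.3 and 28.7 CPM in control libraries, 55.8 and 63.8 CPM at 4 h, 7.96 and 9.25 CPM at 24 h, and 0.987 and 0.928 CPM at 48 h. Its groups did not overlap. The log2 change was 1.00 (SE 0.10, edgeR adjusted p = 4.1e-05) at 4 h, -1.80 (SE 0.11, adjusted p = 2.7e-06) at 24 h and -4.96 (SE 0.16, adjusted p = 1.2e-09) at 48 h. MIR210HG, host of the hypoxia-induced miR-210, had 10.1 and 9.61 CPM in control, 11.7 and 10.7 CPM at 4 h, 5.51 and 6.67 CPM at 24 h, and 0.102 and 0.103 CPM at 48 h. Its 24 h log2 change was -0.70 (SE 0.14), called by edgeR but not without 24 h replicate 1 (-0.56). Behind the 48 h values were 3 and 3 counts, against 356 and 334 in control, a 96.0-fold lower level with an exact 95% counting interval of 43.9 to 262. MIR100HG had 300 and 310 CPM in control, 237 and 230 CPM at 4 h, 210 and 204 CPM at 24 h, and 95.7 and 94.8 CPM at 48 h. Its log2 change was -0.38 (SE 0.06), -0.56 (SE 0.06) and -1.68 (SE 0.06, adjusted p = 2.5e-09) at the 3 times.

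Of 15 tested coding hosts, 1 was higher and 5 lower at 4 h, 3 higher and 1 lower at 24 h, and 6 higher and 4 lower at 48 h (3 and 8 with library totals). Over all genes tested the shares were 15%, 12.9% and 33.3% higher and 13.6%, 9.39% and 33.5% lower at the 3 times. SMC4, a condensin subunit that hosts members of the miR-15 family, had 135 and 155 CPM in control, 98.3 and 99.6 CPM at 4 h, 295 and 292 CPM at 24 h, and 248 and 258 CPM at 48 h. MCM7, a replication helicase subunit that hosts the miR-106b cluster, had 176 and 172 CPM in control, 111 and 117 CPM at 4 h, 263 and 264 CPM at 24 h, and 235 and 193 CPM at 48 h. Both were below control at 4 h and above it later. CTDSP2 was lower at 4 h (log2 change -0.53, SE 0.06) and its paralog CTDSP1 at 48 h (-1.07, SE 0.07); both phosphatase genes host miR-26. NFYC, which hosts members of the miR-30 family, was higher at 48 h by 1.09 (SE 0.07). SREBF1, host of miR-33b, had a log2 change of -0.53 (SE 0.09) at 24 h.

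DGCR8 lies in chromosome band 22q11, and 14 other listed genes of that band were set beside it. At 24 h none of the 14 was called in either direction by edgeR, 6 had an unadjusted p under 0.05 (5 higher, 1 lower), DESeq2 called 0, and limma-voom called 1 higher and 1 lower. At 48 h 10 were higher and 2 lower (7 and 3 with library totals), and their log2 changes ran from -1.15 to 1.13, beside -5.39 for DGCR8. Over all genes tested, 22.3% were called at 24 h, and 33.3% were higher and 33.5% lower at 48 h. DGCR2 had 29.8 and 32.0 CPM at 48 h and 72.5 and 64.2 CPM in control (log2 change -1.15, SE 0.09). MED15, a Mediator subunit, had 280 and 258 CPM at 48 h and 124 and 121 CPM in control (1.13, SE 0.06). TRMT2A, a tRNA methyltransferase gene, is annotated 2 bases past the end of DGCR8 on the opposite strand. It had 67.7 and 58.8 CPM at 48 h and 30.8 and 30.4 CPM in control (1.05, SE 0.10), the opposite direction from DGCR8. Use of strand in counting is not given in the sources used here, so reads at their shared end cannot be told apart.

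**Figure D5:**
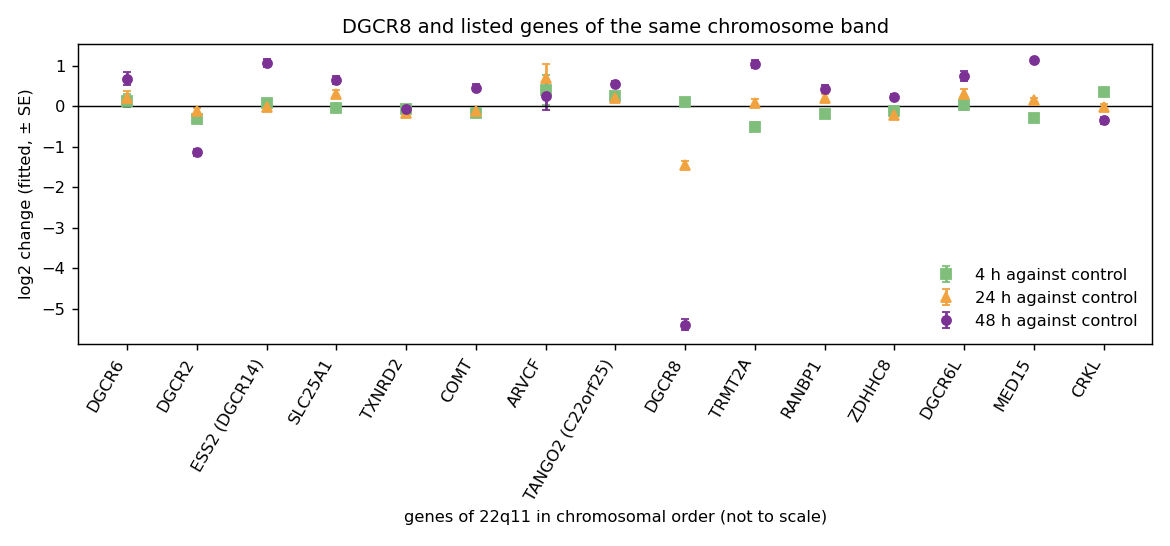
Log2 change against untreated cells at 4, 24 and 48 h for DGCR8 and 14 listed genes of 22q11, in chromosomal order from left to right and not to scale, with 1 SE as the error bar. Apart from DGCR8, at -1.46 at 24 h and -5.39 at 48 h, all points lie between -1.15 and 1.13.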

How the data were processed

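RNA-seq of 8 U87MG libraries was used. Per the labels' protocols, column-purified, DNase-treated total RNA went into Illumina libraries. The submitters' processing notes name Bowtie, hg19 and GRCh37; for counting, the program and strand setting were not given in the sources used here. As deposited by the authors, each file gives raw read counts by gene symbol; 28 date-like names (0.191 to 0.224% of counts) stayed in the totals. Totals were 24620833 to 37162565 counts.

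The 8 genes and all lists were chosen with earlier results of these data known. Counts of all 8 libraries were fitted in R 4.3.3 with edgeR 4.0.16 (filterByExpr, TMM factors of 0.870 to 1.08, quasi-likelihood test, 1 coefficient per group, 4 residual degrees of freedom, biological coefficient of variation 7.15%). A call is a Benjamini-Hochberg adjusted p under 0.05 over 14448 genes. SE is the size of the log2 change over the root of its F statistic. The rule for named genes was the 8 genes, the 3 called genes of smallest p per list and time, and the 5 genes most like DGCR8. A gene that this rule selects is not reported here. Alternatives were library totals, DESeq2 size factors in edgeR, the DESeq2 1.42.0 Wald test, limma-voom (limma 3.58.1) and 2 other filters (19903 and 11076 genes). Further alternatives were a replicate block, fits of the groups compared, a log2 minimum of 1 and each library left out. Only the edgeR step was tested on simulated counts, with far fewer genes changed than were called here at 48 h. It therefore does not test the scaling at 48 h.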

Additional observations from a re-analysis of the deposited data

Results flagged for a closer look

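Each value here is a log2 change between consecutive times of at least 1 in size, called by edgeR in the test of that difference, among the genes named in the results. Because the control cancels in it, it is also the difference of the 2 changes from control.

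From 4 h to 24 h, DGCR8 changed by -1.57 and MIR22HG by -2.80, while SMC4 changed by 1.57 and MCM7 by 1.21, the last pair from below control to above it.

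From 24 h to 48 h, DGCR8 changed by a further -3.93, DICER1 by -1.13 and AGO2 (EIF2C2) by 1.69. Among their partners, DIS3L2 changed by 1.16 and CNOT3 by 1.05, whereas ZC3H12A changed by -2.15, AGO4 (EIF2C4) by -2.11, TNRC6A by -1.49 and PAN2 by -1.47. The host transcripts MIR210HG, MIR22HG and MIR100HG changed by -5.84, -3.16 and -1.12 in that order, and DGCR2 by -1.02. All of these rest on the 48 h libraries, which stood apart from the other 6.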

How the results depend on the processing

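With library totals in place of TMM factors, 4 of the 8 genes were called at 48 h in place of 7, and PRKRA and AGO1 (EIF2C1) turned to -0.020 and -0.022; TARBP2, not called, turned to -0.091. A required log2 change of at least 1 left 0, 1 and 3 of the 8 genes at 4, 24 and 48 h, 1 for 24 h against 4 h and 3 for 48 h against 24 h, and 0, 0, 11, 0 and 10 of the 73 pathway genes in the same order. A fit of only control and 24 h libraries called 38 pathway genes in place of 20. Leaving out each library in turn gave 0 to 4, 1 to 3 and 5 to 8 of the 8 genes at the 3 times, 3 to 6 for 24 h against 4 h and 5 to 6 for 48 h against 24 h. For pathway genes it gave 12 to 33, 7 to 36 and 51 to 62, then 22 to 46 and 52 to 62. At 4 h, at 24 h and for 24 h against 4 h, the highest counts came without a 48 h library. The lowest counts there came without a library of the groups compared. All these fits rest on fewer libraries, and the cause was not tested.

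The titles number the replicates but do not say whether the numbers pair the libraries. Over genes, deviations of same-numbered libraries correlated at -0.00488 to 0.135. That cannot settle it, since a pairing that acts on few genes would be missed. With the replicate block, 3, 3 and 7 of the 8 genes and 24, 25 and 60 pathway genes were called at the 3 times; AGO1 was called higher at 24 h. For all genes, library totals changed the split of higher and lower calls to 1652 and 2667 at 4 h from 2163 and 1964, and to 1359 and 1921 at 24 h from 1866 and 1356. With 2 libraries a group, and 22 and 23 counts of DGCR8 at 48 h, its remaining level is known only within counting error.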

Other observations

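Some rows of the files are named for microRNA hairpins. Of 1225 such rows, 1004 were at 0 counts in all 8 libraries and 14 were tested. At 48 h 2 were called higher and 5 lower, where 33.3% of all genes tested were higher and 33.5% lower (66.9% together). The higher rows were MIR614 and MIR4653, the latter at only 0.374 and 0.619 CPM at 48 h and 0.142 and 0.144 CPM in control. MIR614 had 5.38 and 5.54 CPM at 48 h and 1.05 and 0.949 CPM in control (log2 change 2.44, SE 0.21, edgeR adjusted p = 1.8e-06). The lower rows were MIR221 (log2 change -4.59, SE 1.03, edgeR adjusted p = 0.0021), MIR34A (-4.50, SE 1.18, adjusted p = 0.0056), MIR21 (-2.85, SE 0.90, adjusted p = 0.015), MIR548H4 (-0.77, SE 0.29, adjusted p = 0.034) and MIR4461. MIR221, MIR34A and MIR21 were at or below 0.680 CPM in both control libraries. At 48 h MIR221 had 0 and 0.0344 CPM, MIR34A 0.0340 and 0 CPM, and MIR21 0 and 0.0688 CPM. The size of their log2 changes therefore rests on values at or near 0. MIR4461, the most abundant of the 14 tested rows, had 27.6 and 25.3 CPM at 48 h and 38.5 and 36.9 CPM in control (log2 change -0.51, SE 0.13, edgeR adjusted p = 0.0052). Mature microRNAs were not measured, and which RNA these reads came from was not tested.

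Chosen after their values were seen, 3 further transcripts stood out on the lists. PVT1, a long noncoding RNA, had a log2 change of 2.23 at 48 h, against the direction of most noncoding hosts. CNOT6, a catalytic subunit of the CCR4-NOT deadenylase, had a log2 change of -1.40, and PAN3, the partner of PAN2, of -1.14.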
